A study of Mus musculus with 22 samples.

Results

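The genes described here are 10 lysosomal genes: the proteases Ctsb, Ctsl, Ctsz, Ctsk, Ctsd and Lgmn, the membrane glycoproteins Lamp1 and Lamp2, and the lipid-handling proteins Npc2 and Psap. They were chosen by symbol, 10 of the 52526 distinct symbols listed for each mouse. The rule used no measured value, but the genes were proposed with earlier results of these data known. RNA was measured in the left 4th mammary tissue of 22 female C57BL/6J mice of 7 to 8 weeks of age, 24 hours after the fat pad of every mouse had been engrafted with EO771, a mouse mammary cancer cell line carrying firefly luciferase. Wheel mice had a running wheel on a hub in the home cage for 2 weeks before engraftment and up to tissue collection, and control mice had the hub alone. Every mouse also received liposomes by vein 24 hours before engraftment and again at engraftment. The liposomes held either PBS, a buffer, or clodronate, a drug that is toxic to phagocytes that take the liposomes up. PBS liposomes were given to 6 control and 6 wheel mice, and clodronate liposomes to 5 of each. No group was without engrafted cells or without liposomes, and no library was made from EO771 cells alone.

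Lysosomes are acidic organelles in which material taken up from outside the cell, and worn parts of the cell itself, is broken down. Their proteases are made as inactive precursors and become active at low pH, and a coat of heavily glycosylated membrane proteins lines the organelle from inside. Nearly all cells have lysosomes, and macrophages, which engulf debris, cells and liposomes, are rich in them.

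The library method, QuantSeq, yields about 1 fragment per transcript from its 3′ end. Levels of different genes can therefore be set side by side on the deposited CPM scale (reads scaled to an equal total in each mouse) without division by length. Depth ranged from 13256467 to 20484578 reads per mouse, and no level of the 10 lysosomal genes rested on fewer than 86 reads. The deposited values have a floor of 1 CPM, and the 10 genes were above it in all 22 mice. Mammary tissue markers were present in every group: the summed level of 8 adipocyte genes had a median of 10621 to 13714 CPM over the groups and that of 8 epithelial genes (keratins, claudins and Epcam) a median of 435 to 729 CPM. In 5 mice a score of 12 lymphocyte markers, the mean of log2(CPM + 1), lay between 4.27 and 5.72, against 1.00 to 1.29 in the other 17. These were control mouse 2 and wheel mouse 3 with PBS liposomes and wheel mice 3, 4 and 5 with clodronate liposomes, so that only 2 wheel mice with clodronate liposomes are left without them. The skeletal muscle score also varied widely, from 1.63 to 11.1 over single mice. The tissue was lysed whole, and in such bulk samples fewer cells of a type and less RNA per cell cannot be told apart.

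Promoters of Lamp1 and Ctsd are shown because these were among the lysosomal genes whose levels lay apart between groups, and because both carry the E-box letters CACGTG that the MiT/TFE factors, transcription factors of many lysosomal genes, are known to bind. Capitals mark CACGTG, a palindrome that reads alike on both strands. The sequences are from RefSeq on GRCm38.p6, 250 bases before to 50 after the annotated start, and 9 of the 10 genes matched that table. Ctsb is the gene without an entry.
Lamp1, chr8:13158911-13159210, plus strand: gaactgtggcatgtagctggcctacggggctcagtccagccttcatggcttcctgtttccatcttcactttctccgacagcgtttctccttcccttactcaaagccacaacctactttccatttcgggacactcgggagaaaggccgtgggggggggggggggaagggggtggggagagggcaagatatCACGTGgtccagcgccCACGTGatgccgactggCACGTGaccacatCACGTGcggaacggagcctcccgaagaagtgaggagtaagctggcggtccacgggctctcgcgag
Ctsd, chr7:142387778-142388077, minus strand: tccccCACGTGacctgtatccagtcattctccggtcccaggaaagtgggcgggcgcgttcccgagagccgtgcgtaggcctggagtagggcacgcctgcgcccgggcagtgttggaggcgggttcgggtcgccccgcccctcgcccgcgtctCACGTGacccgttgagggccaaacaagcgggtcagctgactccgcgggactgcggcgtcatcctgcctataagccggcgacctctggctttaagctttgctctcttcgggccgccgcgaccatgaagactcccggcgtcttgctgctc
Lamp1 held 4 copies, at -61, -45, -28 and -15 from the start, and Ctsd held 2, at -245 and -98. The copy at -98 in Ctsd lies within the longer palindrome TCACGTGA, so that the searches for these motifs overlap there. Ctsl held 1 copy at -236, and 1 of the 2 annotated promoters of Lgmn held 1 at -49. In all, 4 of the 11 promoters of the matched genes held CACGTG (36.4%), against 7.15% of 32851 promoters of the same length, and 1 of the 11 held TCACGTGA, against 0.974%. Over 8 other lists of lysosome-related genes, the share with CACGTG ranged from 0% to 80%. It was 36.4% for lysosomal glycosidases and 9.09% for other lysosomal membrane proteins, so it was not particular to the genes described here. A match is a description of these letters and not of a bound site.

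By level, the genes fell into 3 ranges. Ctsd, Ctsb, Psap, Npc2 and Lamp1 were among the most abundant transcripts of the tissue, with means over the 22 mice of 562, 473, 397, 387 and 312 CPM. Lamp2 (163 CPM), Ctsl (158 CPM) and Ctsz (60.0 CPM) were intermediate, and Lgmn (20.2 CPM) and Ctsk (13.9 CPM) were low. Among 15138 genes tested, Ctsd ranked 67 by mean level and Ctsb 86, while Lgmn ranked 4848 and Ctsk 6304. Neighbours in this order overlapped over the mice with 1 exception, since Lamp1 of every mouse (at least 244 CPM) was above Lamp2 of every mouse (at most 222 CPM). Npc2, for example, ranged from 227 to 541 CPM and Psap from 237 to 578 CPM over the same 22 mice. The spread differed between the genes too. The SD within groups on the log2(CPM + 1) scale was 0.12 for Lamp1, which spanned 1.63-fold from the lowest to the highest mouse, and 0.82 for Lgmn, which spanned 11.1-fold. The median over the 7655 tested genes with a mean of at least 10 CPM was 0.39. Lamp1, Ctsb (0.23), Ctsd (0.24), Lamp2 (0.25) and Npc2 (0.30) varied less than this median and Ctsz (0.47), Ctsk (0.57) and Lgmn (0.82) more. Those genes were not matched by level, and the less variable genes named were all more abundant than the more variable ones.

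**Figure D1:**
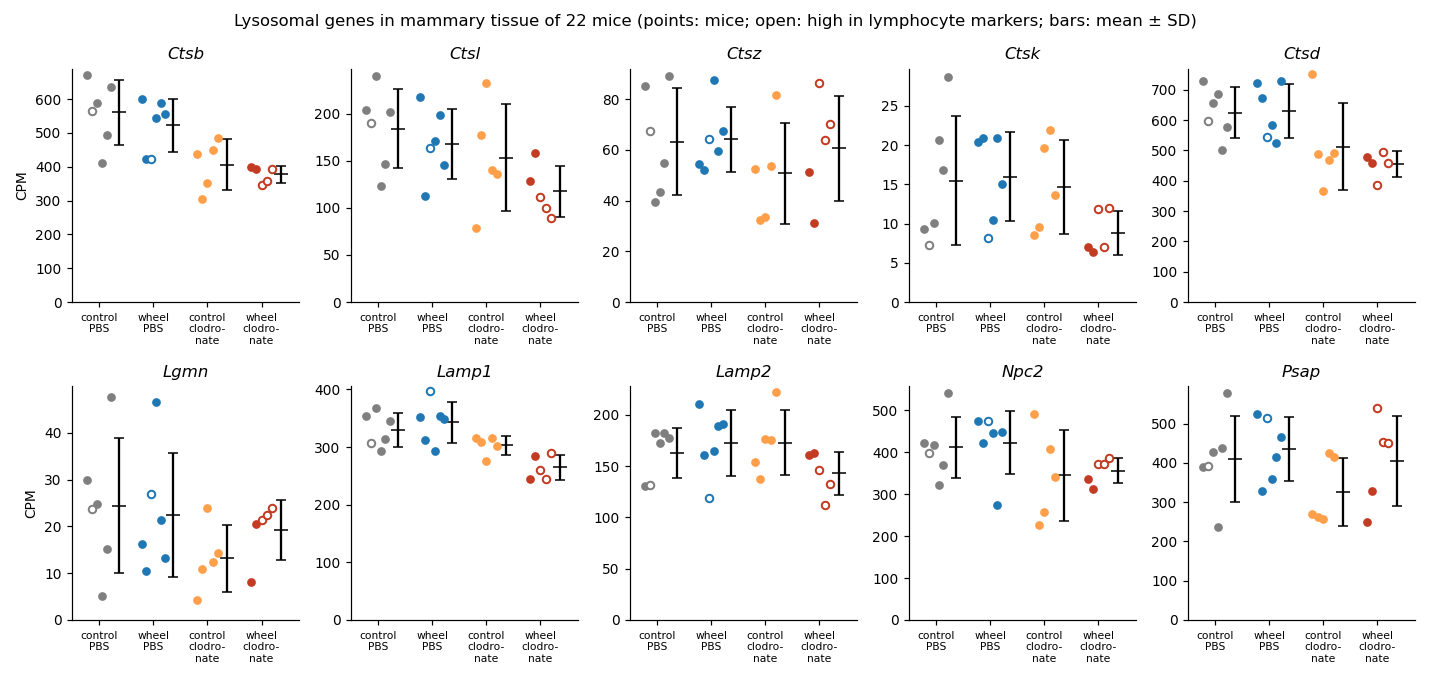
Level of each gene in CPM (vertical axis, from 0) in the 4 groups of mice (horizontal axis). Points are mice, open points the 5 mice high in lymphocyte markers, and bars the mean ± SD of the group. Ctsb, Ctsd and Lamp1 of wheel mice with clodronate liposomes lie below those of wheel mice with PBS liposomes, while Lgmn spreads 11.1-fold over the 22 mice.

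On the deposited CPM scale, Ctsb, Ctsd and Lamp1 in wheel mice lay lower with clodronate than with PBS liposomes without overlap. For Ctsb and Lamp1 the margin was narrow and depended on that scale, and in control mice these genes overlapped. Averaged over activity, Ctsb was lower by 0.46 on the log2(CPM + 1) scale, Ctsd by 0.39 and Lamp1 by 0.24, and none of the 10 genes passed an adjusted p of 0.05. All of the 10 had an estimate below 0, with a median difference of -0.32, against -0.04 over all 15138 genes tested, of which 57.4% were below 0. Whether the difference by liposome depended on the wheel was tested as an interaction. There 0 of the 10 genes had an unadjusted p under 0.05 (limma), against 7.58% of all genes. These comparisons ask whether the lysosomal genes are at other levels when phagocytes have been targeted, with or without the wheel.

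Ctsb (chromosome 14, 63122462 to 63145923, positions of all genes on GRCm38) encodes cathepsin B, a cysteine protease that cuts inside proteins and trims them from the end. With PBS liposomes its level ranged from 411 to 672 CPM with a median of 577 in control mice and from 423 to 601 CPM with a median of 549 in wheel mice. With clodronate liposomes it was 439, 304, 353, 449.9 and 485 CPM in the 5 control mice and 399.7, 393, 346, 357 and 392 CPM in the 5 wheel mice. Every wheel mouse with clodronate liposomes was below every wheel mouse with PBS liposomes, whereas the control groups overlapped. The group means were 561 ± 95.7 CPM (SD, n = 6) and 406 ± 74.9 CPM (SD, n = 5) in control mice, and 522 ± 79.7 CPM (SD, n = 6) and 378 ± 24.4 CPM (SD, n = 5) in wheel mice. Averaged over activity, limma gave a difference of -0.46 ± 0.105 (SE), a ratio of 0.727 on the CPM + 1 scale, with an adjusted p of 0.0628. The difference was -0.47 in control mice (adjusted p = 0.496) and -0.45 in wheel mice (adjusted p = 0.235). The averaged call depended on single settings: the adjusted p was 0.0404 when only genes with a mean of at least 5 CPM were tested, 0.0290 without control mouse 4 with PBS liposomes, 0.0338 without control mouse 1 with clodronate liposomes, and 0.238 without the 5 mice high in lymphocyte markers, with differences from -0.50 to -0.38 over the 32 alternatives. The last 400 bases of the Ctsb transcript overlap Fdft1, the squalene synthase gene on the opposite strand. Reads of such partners cannot be told apart unless counting used the strand, which is not given in the sources used here. Fdft1 had a mean of 14.9 CPM and was 0.82 lower on the log2 scale with clodronate liposomes (adjusted p = 0.118), and its part in the Ctsb level was not tested.

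Ctsd (chromosome 7, 142375911 to 142388038) encodes cathepsin D, the main aspartic protease of the lysosome. Its level with PBS liposomes ranged from 499.7 to 729 CPM with a median of 626 in control mice and from 524 to 727 CPM with a median of 627 in wheel mice. In the mice with clodronate liposomes it was 751, 487, 367, 468 and 489.9 CPM without the wheel and 479.6, 458, 385, 494 and 459 CPM with it. Wheel mice were again fully apart by liposome, and in control mice a single clodronate mouse, mouse 1 with 751 CPM, was above all mice with PBS liposomes while the other 4 were below all of them. The difference averaged over activity was -0.39 ± 0.110 (SE) with an adjusted p of 0.149 by limma, and without that mouse the adjusted p was 0.0179. It was -0.46 in wheel mice (adjusted p = 0.255) and -0.31 in control mice (adjusted p = 0.717). Gm49369, a protein-coding gene on the same strand, overlaps the last 1000 bases of the Ctsd locus, where strand would not separate their reads. The last 400 bases of the Ctsd transcript matched no annotated transcript of that or another gene at 97% identity or more.

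Lamp1 (chromosome 8, 13159161 to 13175338) and Lamp2 (chromosome X, 38401357 to 38456454) encode the most abundant glycoproteins of the lysosomal membrane, and an isoform of Lamp2 serves as a receptor for proteins taken into the lysosome one at a time. Lamp1 ranged from 292 to 367 CPM with a median of 329 in control mice and from 294 to 397 CPM with a median of 349.9 in wheel mice with PBS liposomes. With clodronate liposomes Lamp1 was 315, 308, 276, 315 and 301 CPM in control mice and 244, 285, 261, 244 and 289.8 CPM in wheel mice. All 5 wheel mice with clodronate liposomes were below all 6 wheel mice with PBS liposomes, by a narrow margin, and the control groups overlapped. The difference was -0.37 ± 0.103 (SE) in wheel mice (limma, adjusted p = 0.190) and -0.24 ± 0.073 (SE) averaged over activity (adjusted p = 0.176). Lamp2 had group means of 163 ± 24.8, 173 ± 31.9, 173 ± 31.97 and 143 ± 20.9 CPM (SD, in the order control and wheel with PBS, control and wheel with clodronate), and all groups overlapped. Across mice, the deviations of Lamp1 and Lamp2 from their group means had an r of -0.11 (n = 22). The end of Lamp1 overlaps Grtp1 on the opposite strand, which had a mean of 3.78 CPM, and its part in the Lamp1 level was not tested.

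Ctsl (chromosome 13, 64359337 to 64370890), Ctsz (chromosome 2, 174427493 to 174439039) and Ctsk (chromosome 3, 95499256 to 95509362) encode further cysteine cathepsins: cathepsin L cuts inside proteins, cathepsin Z trims single residues from the end, and cathepsin K degrades collagen and is best known from osteoclasts. Ctsl was 78.6, 177, 232, 140.0 and 136 CPM in control and 129, 158, 112, 99.5 and 89.6 CPM in wheel mice with clodronate liposomes. With PBS liposomes it ranged from 123 to 239.8 CPM with a median of 196 in control mice and from 113 to 218 CPM with a median of 167 in wheel mice. The groups overlapped in both comparisons of liposomes, and control mouse 1 with clodronate liposomes, the mouse with the highest Ctsd, had the lowest Ctsl of all. Ctsk was 6.96, 6.40, 11.9, 6.98 and 11.9 CPM in wheel mice with clodronate liposomes, all at or below 11.9 CPM, against from 8.19 to 20.96 CPM with a median of 17.8 in wheel mice with PBS liposomes. Control mice had 8.59, 9.51, 19.7, 21.9 and 13.7 CPM with clodronate liposomes and ranged from 7.25 to 28.6 CPM with a median of 13.4 with PBS liposomes. Ctsk levels overlapped between all groups. Of the 6 osteoclast markers examined only 3 passed the filter on low values, and the summed level of the list ranged from 83.3 to 176 CPM over single mice. Ctsz had group means of 63.2 ± 21.1, 64.2 ± 12.8, 50.7 ± 20.1 and 60.6 ± 20.8 CPM (SD, same order) and overlapped in all comparisons. Ctsz ends within Nelfcd, a gene of the opposite strand with a mean of 24.6 CPM, whose part was not tested.

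Lgmn (chromosome 12, 102394084 to 102439813) encodes legumain, which cuts after asparagine and activates other lysosomal proteases. It ranged from 5.03 to 47.8 CPM with a median of 24.4 in control mice and from 10.5 to 46.7 CPM with a median of 18.8 in wheel mice with PBS liposomes. With clodronate liposomes it was 4.30, 10.9, 23.9, 12.5 and 14.3 CPM in control mice and 8.13, 20.5, 21.3, 22.5 and 24.03 CPM in wheel mice. In the last group 4 mice lay close together and wheel mouse 1 far below them. The lowest values of all, 4.30 and 5.03 CPM, were in control mouse 1 with clodronate liposomes and control mouse 4 with PBS liposomes. In control mice the difference by liposome was -0.76 ± 0.456 (SE; limma, adjusted p = 0.766).

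Npc2 (chromosome 12, 84754562 to 84773152) and Psap (chromosome 10, 60277627 to 60302597) handle lipids. NPC2 hands cholesterol from the lysosomal lumen to NPC1 in the membrane, and prosaposin is cut into saposins, the helpers of sphingolipid-degrading enzymes. Npc2 had means of 412 ± 73.3, 423 ± 75.99, 345 ± 108 and 356 ± 30.5 CPM and Psap of 411 ± 109, 435 ± 81.4, 326 ± 86.5 and 404 ± 115 CPM (SD, same order). For both, the groups overlapped in every comparison. Psap in control mice with clodronate liposomes fell into 3 mice between 258 and 269 CPM and 2 at 416 and 425 CPM.

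Across the 10 genes, the counts by liposome were read against all genes tested. In wheel mice 5 of the 10 (Lamp1, Ctsb, Ctsd, Ctsl and Ctsk) were lower at an unadjusted p under 0.05, against 5.54% of all genes, and 0 passed an adjusted p of 0.05, against 0.00661% of all genes. The groups of wheel mice did not overlap, with clodronate lower, for 3 of the 10 genes (Ctsb, Ctsd and Lamp1), against 0.912% of all genes. This count is on the deposited CPM scale, where reads of no gene are part of the total. Genes above the floor held 57.2% to 58.5% of the reads in wheel mice with clodronate and 58.3% to 63.7% with PBS liposomes. The narrow margins of Ctsb (399.7 against 423 CPM) and Lamp1 (289.8 against 294 CPM) depend on that scale. In control mice 1 gene (Ctsb) was lower at an unadjusted p under 0.05, against 6.08% of all genes, 0 passed an adjusted p of 0.05, against 0%, and 0 had groups apart, against 0.575%. Averaged over activity, 4 genes (Ctsb, Ctsd, Lamp1 and Ctsl, with differences of -0.46, -0.39, -0.24 and -0.41) were lower at an unadjusted p under 0.05, against 8.30% of all genes, and 0 passed an adjusted p of 0.05, against 0.205%. The averaged comparison is built from the other 2 and is not further evidence beside them.

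Scaling and library composition moved these counts. Upper-quartile scaling shifted the median of all genes upward by 0.10 in control mice. The 10 genes then had a median of -0.20 there, with 7 of 10 below 0 in place of 9. Of all genes, 50.7% were then below 0 there in place of 65.4%. Averaged over activity, the 10 genes had a median of -0.24 with all 10 still below 0, against 45.5% of all genes in place of 57.4%. Of the 10, 3 were lower there at an unadjusted p under 0.05, against 4.56% of all genes. Without the 5 mice high in lymphocyte markers, the averaged median was -0.41, against -0.10 over all genes, of which 64.1% were below 0. Then 5 genes (Ctsb, Ctsd, Ctsk, Lamp1 and Psap) were lower at an unadjusted p under 0.05, against 9.88% of all genes. In wheel mice 2 (Ctsk and Lamp1) were, against 5.95%. Markers of cell types were counted in the same comparisons, and none of those given next passed an adjusted p of 0.05. In wheel mice by liposome, 12 of 12 lymphocyte markers were above 0 (11 at an unadjusted p under 0.05, median 2.00). Their summed level ranged from 14.0 to 333 CPM with a median of 15.5 with PBS and from 14.2 to 797 CPM with a median of 495 with clodronate liposomes. In the same mice 10 of 12 macrophage markers were below 0 (0 at an unadjusted p under 0.05, median -0.19), while the median of their summed level was 506 CPM with PBS and 631 CPM with clodronate liposomes. All 8 fibroblast and all 8 adipocyte markers were below 0 there (3 and 4 at an unadjusted p under 0.05, medians -0.48 and -0.48). In control mice by liposome, 11 of 12 lymphocyte markers were instead below 0 (0 at an unadjusted p under 0.05, median -0.52). Averaged over activity, 12 of 12 lymphocyte markers were above 0 (0 at an unadjusted p under 0.05, median 0.87). In that comparison 12 of 12 macrophage markers were below 0 with clodronate (3 at an unadjusted p under 0.05, median -0.29), and 10 of 12 after upper-quartile scaling. The summed level of these markers ranged from 276 to 724 CPM in control and 295 to 701 CPM in wheel mice with PBS liposomes, and from 316 to 443 CPM in control and 288 to 756 CPM in wheel mice with clodronate liposomes. None of the macrophage markers was at the floor in a whole group. Of 8 fibroblast markers 8 were below 0 (5 at an unadjusted p under 0.05, median -0.44), as were 8 of 8 adipocyte markers (3, median -0.31), while 8 of 8 skeletal muscle markers were above 0 (0, median 1.54), and after upper-quartile scaling 7 of 8 fibroblast and 7 of 8 adipocyte markers were below 0. The summed fibroblast markers ranged from 1933 to 4542 CPM in control and 2027 to 3786 CPM in wheel mice with PBS liposomes, and from 1763 to 2838 and 1789 to 2904 CPM with clodronate liposomes. For the adipocyte markers these ranges were 10250 to 14398, 11419 to 15719, 5801 to 20448 and 8412 to 13498 CPM in the same order, and for the muscle markers 23.7 to 2847, 19.4 to 316, 27.6 to 22746 and 26.4 to 10337 CPM. No marker of these 3 lists was at the floor in a whole group. Without the 5 mice high in lymphocyte markers, all 8 muscle markers were above 0 at an unadjusted p under 0.05, with a median of 2.85. Their part in the levels of the lysosomal genes was not tested.

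**Figure D2:**
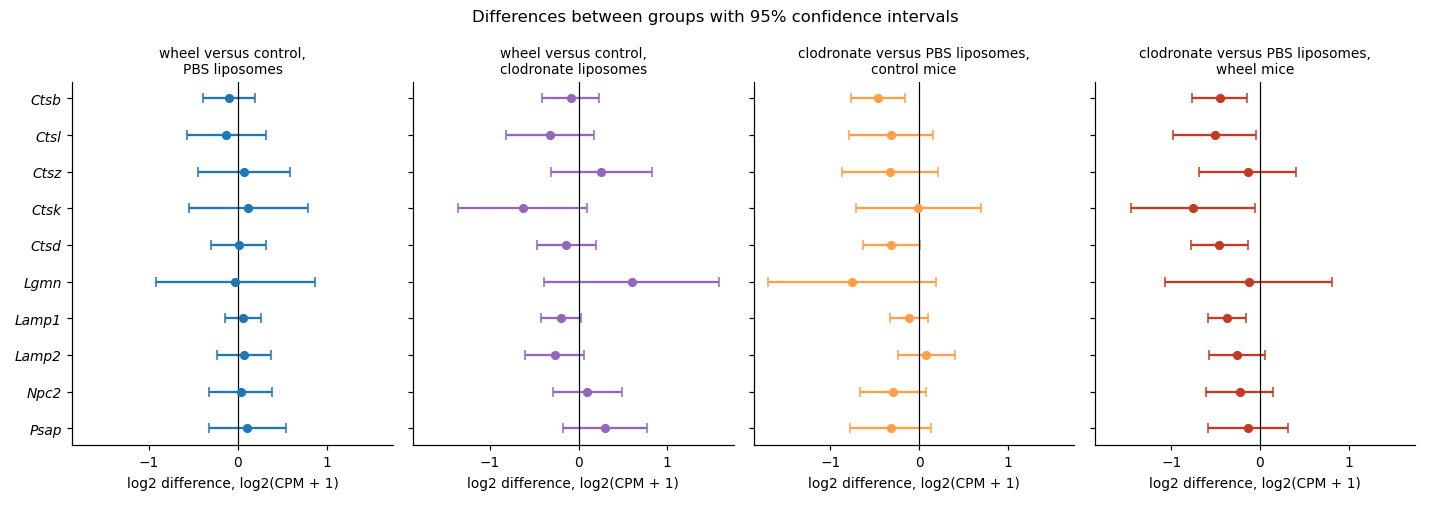
Difference between groups on the log2(CPM + 1) scale (horizontal axis) for each gene (vertical axis), with 95% confidence intervals from limma, in 4 comparisons. With the wheel every interval spans 0, while with clodronate liposomes the intervals of Ctsb lie below 0 in both control and wheel mice and those of Ctsd, Lamp1, Ctsl and Ctsk in wheel mice.

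In wheel against control mice, no difference of the 10 genes passed the test with either liposome. With PBS liposomes, 3 of the 10 genes were below 0, against 63.8% of all genes. The median difference was 0.04, against -0.08 over all genes. The genes with the smallest p were Ctsb (-0.10, 95% confidence interval -0.39 to 0.19), Ctsl (-0.13, -0.58 to 0.32) and Lamp1 (0.05, -0.15 to 0.26), with adjusted p of 0.991, 0.991 and 0.993 by limma. None of the 10 was at an unadjusted p under 0.05 (0 against 4.91% of all genes) or past an adjusted p of 0.05 (0 against 0%). The interval of Lamp1 was the narrowest of the 10 and that of Lgmn, from -0.93 to 0.87, the widest.

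With clodronate liposomes, wheel mice had lower Lamp1 (-0.20, 95% confidence interval -0.42 to 0.03), Ctsk (-0.63, -1.36 to 0.10) and Lamp2 (-0.27, -0.60 to 0.06) by estimates that did not pass the test (limma, adjusted p = 0.566, 0.575 and 0.614). Here 6 of the 10 were below 0, against 49.3% of all genes, with a median of -0.11 against 0.00 over all genes. Of the 10, 0 were at an unadjusted p under 0.05, against 10.4% of all genes, or past an adjusted p of 0.05, against 0.00661%. The difference of the wheel effect between liposomes was tested as an interaction. Its smallest p were those of Lamp1 (-0.25 ± 0.146, SE), Lamp2 (-0.34 ± 0.217, SE) and Ctsk (-0.75 ± 0.479, SE), with adjusted p of 0.715, 0.735 and 0.740 by limma. For the interaction 0 of the 10 were at an unadjusted p under 0.05, against 7.58% of all genes, and 0 past an adjusted p of 0.05, against 0%.

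Other genes of the lysosome were counted by function in the comparison of liposomes averaged over activity, and no gene of these 8 lists passed an adjusted p of 0.05 in any comparison. Of the V-ATPase, the proton pump that acidifies the lysosome, 14 of 16 subunits were tested and 14 were below 0 (12 after upper-quartile scaling), with a median of -0.24, against 57.4% of all genes below 0. At an unadjusted p under 0.05, 7 of the 14 were lower, against 8.30% of all genes, and 1 of the 14 after upper-quartile scaling, against 4.56%. The subunit with the smallest p, picked after its value was seen, was Atp6v1a, which belongs to the ATP-splitting part of the pump (-0.25 ± 0.077, SE; limma, adjusted p = 0.190). All 6 genes that sort enzymes to the lysosome were below 0 (5 after upper-quartile scaling, median -0.24), as were 9 of 11 tested other membrane proteins (median -0.23) and 12 of 15 lipid enzymes, sulfatases and phosphatases (median -0.16). Of the glycosidases 7 of 14 and of the other proteases 5 of 12 were below 0, with medians of 0.00 and 0.06 and with 0 and 3 lower at an unadjusted p under 0.05. These averages joined opposite directions. In control mice 12 of 14 and 10 of 12 were below 0 (medians -0.24 and -0.25), against 65.4% of all genes. The median of the 10 genes described here was -0.32 there. In wheel mice 3 of 14 and 3 of 12 were below 0 (medians 0.19 and 0.20), against 49.9% of all genes, and the 10 had a median of -0.31. Averaged over activity without the 5 mice high in lymphocyte markers, 10 of the 12 other proteases were below 0 with a median of -0.16. Of these, 4 were at an unadjusted p under 0.05, against 9.88% of all genes. The glycosidases had 8 of 14 below 0 with a median of -0.10, and the median over all genes was also -0.10. The V-ATPase then had 13 of 14 below 0 with a median of -0.27. With all mice, the MiT/TFE factors had 1 of 3 below 0 (0 after upper-quartile scaling) and the cystatin and stefin inhibitors of cysteine proteases 2 of 7 (1 after upper-quartile scaling, median 0.27). Differences between lists were not tested.

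**Figure D3:**
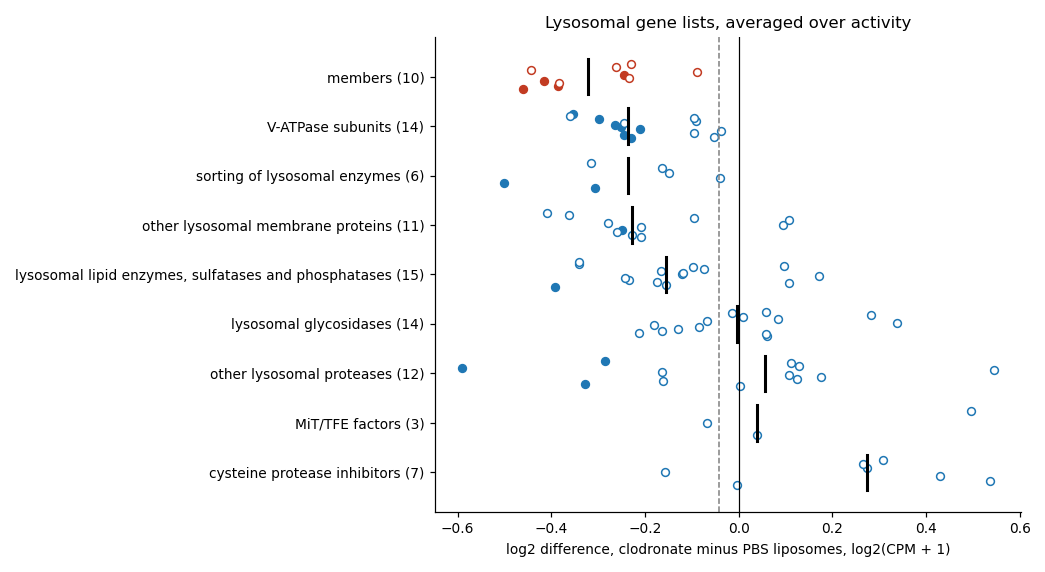
Difference between clodronate and PBS liposomes, averaged over activity, on the log2(CPM + 1) scale (horizontal axis) for single genes (points) of 9 lists (vertical axis, number tested in brackets). Filled points have an unadjusted p under 0.05, black bars are list medians and the dashed line is the median of all genes (-0.04). The 10 genes described here and all 14 V-ATPase subunits (12 after upper-quartile scaling) lie below 0. Most glycosidases and other proteases were below 0 in control mice and above 0 in wheel mice, which the average does not show.

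The other proteases were also counted in wheel mice against control mice with clodronate liposomes. There 8 of 12 were above 0 with a median of 0.55, against 7661 of all 15138 genes. At an unadjusted p under 0.05, 3 of the 12 were higher, against 1065 of the 15138. One was Ctsc, named after its value was seen, which encodes the cathepsin that activates the serine proteases of immune cells (0.85 ± 0.227, SE; limma, adjusted p = 0.232). In the same comparison 12 of 12 lymphocyte markers were above 0, all at an unadjusted p under 0.05, with a median of 2.60, and 6 of the 12 were at the floor in every control mouse with clodronate liposomes. The summed level of these markers was at most 18.4 CPM in control and 14.2 to 797 CPM in wheel mice with clodronate liposomes. Their part in the Ctsc level was not tested. Without the 5 mice high in these markers, 4 of the 12 other proteases were above 0 with a median of -0.10, against -0.05 over all genes.

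The 10 genes varied together only in part from mouse to mouse. Over the 45 pairs, the r of deviations from the group means (n = 22 mice) had a median of 0.14, ranged from -0.54 to 0.59 and was positive in 29. The highest were Ctsl with Lgmn (0.59), Ctsz with Psap (0.57), Ctsk with Lamp2 (0.54), Lgmn with Psap (0.53) and Ctsz with Npc2 (0.53). Ctsd ran against Lgmn (-0.54) and Ctsl (-0.48). Leaving out the 5 mice high in lymphocyte markers gave 0.74 for Ctsl with Lgmn and -0.55 for Ctsd with both, and a median of 0.19. The other pairs named then had 0.43 (Ctsz with Psap), 0.48 (Ctsk with Lamp2), 0.50 (Lgmn with Psap) and 0.54 (Ctsz with Npc2). Ctsb with Psap went from 0.42 to 0.73 and Ctsb with Ctsz from 0.47 to 0.68, so the highest pairs changed. The points of each pair share their libraries and depths, and these values are descriptions.

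Deviations were also compared with 10 marker scores, in 100 pairs of gene and score, over 22 mice. No pair passed an adjusted p of 0.05 by Pearson's r (permutation within groups), and 4 did by Spearman's rho, of which none was left after upper-quartile scaling (0 of 100 pairs). Ctsk went with the fibroblast score (r = 0.76, permutation p = 0.00071, adjusted p = 0.0710; rho = 0.74, permutation p = 0.00084, adjusted p = 0.0433). Npc2 went with the macrophage score (r = 0.58, permutation p = 0.0018, adjusted p = 0.0900; rho = 0.64, permutation p = 0.00109, adjusted p = 0.0433). Lgmn also went with the macrophage score (r = 0.53, permutation p = 0.0163, adjusted p = 0.168; rho = 0.65, permutation p = 0.0013, adjusted p = 0.0433) and against the epithelial score (r = -0.54, adjusted p = 0.168; rho = -0.67, permutation, adjusted p = 0.0435). Without the 2 mice farthest from the median of the score, r was 0.66, 0.55, 0.32 and -0.67 in this order, so that the relation of Lgmn to the macrophage score was weaker without 2 mice. Without the 5 mice high in lymphocyte markers r was 0.65, 0.58, 0.50 and -0.55, and none of the 4 passed (rho, permutation, adjusted p from 0.398 to 0.419). Ctsb, Ctsd and Lamp1, the genes with the lowest p by liposome, had an r of 0.12, 0.01 and 0.12 with the macrophage score and of 0.51, 0.46 and 0.31 with the adipocyte score (permutation within groups, adjusted p = 0.241, 0.332 and 0.429). With the skeletal muscle score their r was -0.30, -0.48 and 0.14 (permutation within groups, adjusted p = 0.437, 0.244 and 0.725). With the epithelial score it was -0.11, -0.05 and -0.48 (permutation within groups, adjusted p = 0.791, 0.854 and 0.261). Without the 5 mice the r of Ctsb with the macrophage score was 0.33. Within the lymphocyte score the mice form separate clusters, so no pooled value is given for it.

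**Figure D4:**
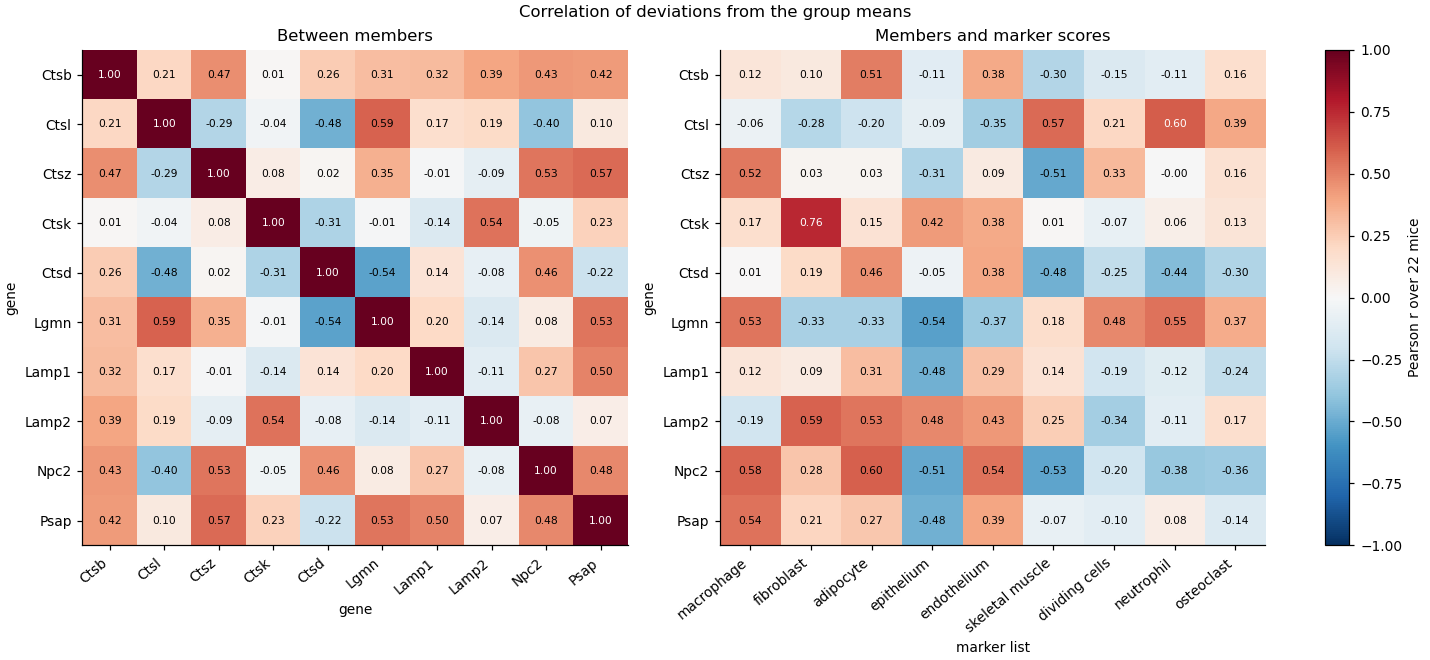
Pearson r over 22 mice of deviations from the group means, between the 10 genes (left) and between genes and 9 of the 10 marker scores (right, without lymphocytes), with the color from -1 (blue) to 1 (red). The highest value between a gene and a score is 0.76 for Ctsk with fibroblast markers, and Ctsd has negative values with Lgmn and Ctsl.

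**Figure D5:**
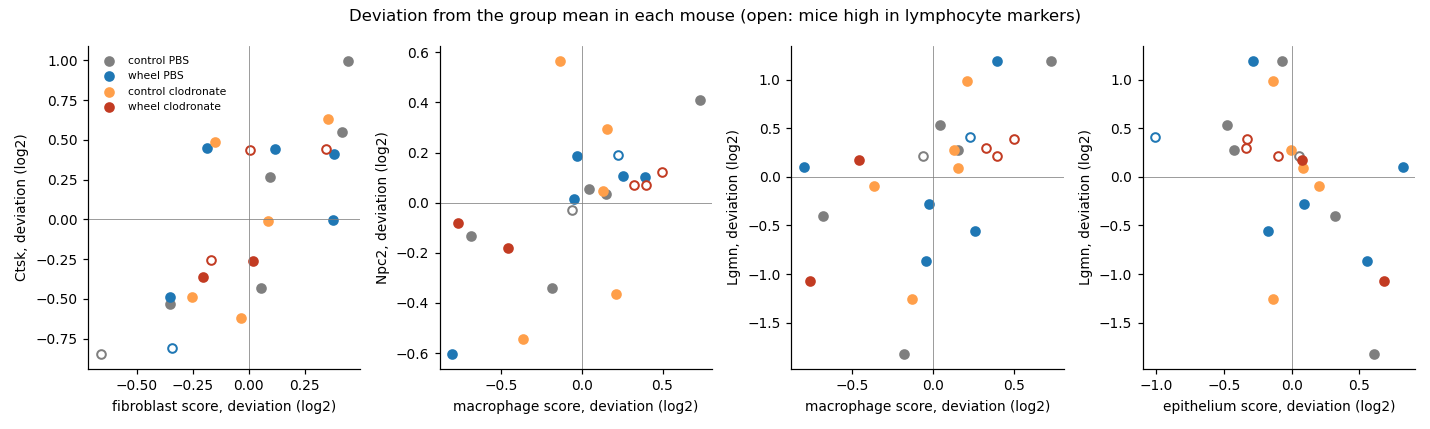
Deviation of a gene from its group mean on the log2(CPM + 1) scale (vertical axis) against that of a marker score (horizontal axis) in each of 22 mice, for the 4 pairs that passed by Spearman's rho (0 pairs after upper-quartile scaling). Colors are the groups, and open points the 5 mice high in lymphocyte markers. Points rise together for Ctsk with fibroblast markers and for Npc2 and Lgmn with macrophage markers, and Lgmn falls with epithelial markers.

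Among the tested genes other than the 10, those most like each of the 10 across the 22 mice were named by the r of deviations, up to 3 per gene. Genes like Npc2 included Grn, which encodes progranulin, and Sumf1, which encodes the enzyme that activates sulfatases (0.83 and 0.83). Psap was followed by Fli1, S1pr1 and Atp6v0e (0.88, 0.84 and 0.82), and Lamp2 by Lzts2, Ctsf and Antxr1 (0.79, 0.79 and 0.79). Ctsb was closest to Anxa5, Aco1 and Asns (0.84, 0.82 and 0.79), Ctsd to Swi5, mt-Nd2 and Pex11a (0.86, 0.85 and 0.84), and Lamp1 to Tmem17, Hagh and Smim27 (0.79, 0.78 and 0.76). Ctsk was closest to Eln, the elastin gene, Zfp410 and Phc3 (0.77, 0.76 and 0.73). Ctsl had Rab28, Nsmce3 and Ssr3 (0.81, 0.81 and 0.81), Ctsz had Fhod1, Apold1 and St6galnac4 (0.85, 0.85 and 0.84), and Lgmn had Rcc1, Rpl7a and Capza2 (0.86, 0.86 and 0.86). These are among the highest values for each gene, picked from the 15138 tested genes less the 10, and are given as descriptions.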

How the data were processed

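RNA-seq was measured in 22 mice in 4 groups taken from the sample labels, all of 1 experiment. Reads were mapped by the authors, who deposited 1 signal per gene and mouse, CPM with values below 1 set to 1, and the submitters' processing notes name STAR 2.5.3a and GRCm38. The 4 rows that name no gene held 35.4% to 42.6% of the reads and were left out. Depth came from the steps between values. The floor hides up to 13 to 20 reads of a gene, so no count test was run.

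The 15138 genes that exceeded the floor in 5 or more mice were tested on log2(CPM + 1) with limma 3.58.1 in R 4.3.3 (4 group means, 18 residual degrees of freedom, variance trend, two-sided, Benjamini-Hochberg adjustment), a step tested on simulated data. This scale understates changes near the floor. The genes and lists were chosen with earlier results of these data known, and differences are named for the 3 genes with the smallest p per comparison. Correlations used deviations from group means and 100000 permutations within groups. The last 400 bases of transcripts were compared in BLAST 2.17.0. Alternatives were other pseudocounts, filters and scalings, fewer groups, no trend, a replicate block and leaving out each mouse. Leaving out the 5 mice with a lymphocyte score over 3 was added after seeing the data. A result for 1 gene is not reported here.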

Additional observations from a re-analysis of the deposited data

Results flagged for a closer look

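In 40 sets of values (10 genes in 4 groups), 2 single mice lay further from the rest of their group than Dixon's 95% limit on the log2(CPM + 1) scale, the number that chance would give (2). Lgmn was 8.13 CPM in wheel mouse 1 with clodronate liposomes, against 20.5 to 24.0 CPM in the other 4 mice of that group, which include 3 high in lymphocyte markers. Npc2 was 273 CPM in wheel mouse 5 with PBS liposomes, against 421 to 475 CPM in the other 5. That mouse also had the highest epithelial score of its group (6.31) and the lowest macrophage score (3.96).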

How the results depend on the processing

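The 18 named log2 differences kept their direction and their side of an adjusted p of 0.05 in 190 of 192 alternatives and in 393 of 396 fits without 1 mouse. The exceptions were Ctsb averaged over activity, which passed in 3 fits, Ctsd, which passed in 1, and Lamp1 in wheel against control mice with PBS liposomes, which turned to -0.0093 without the 5 mice high in lymphocyte markers. Members past an adjusted p of 0.05 averaged over activity numbered 0, 1 when the mean had to reach 5 CPM (10112 genes tested), and 0 to 2 without 1 mouse. They stayed at 0 in the other 5 comparisons.

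Genes past that threshold averaged over activity numbered 31, 54 when the mean had to reach 5 CPM, 14 with upper-quartile scaling, 15 scaled to the summed CPM, 20 without the trend, 11 with the replicate block, 0 without the 5 mice, and 12 to 146 without 1 mouse. Control clodronate mouse 1 gave the 146. In wheel mice by liposome they numbered 1, and 3 with pseudocount 5, 4 without the filter, 2 with either scaling or without the trend, 0 with the mean filter, only the groups compared, the replicate block or without the 5 mice, and 0 to 51 without 1 mouse. By activity with clodronate they numbered 1, and 3 without the filter, 0 with the mean filter, only the groups compared, the block or without the 5 mice, and 0 to 240 without 1 mouse, the highest counts in both without wheel clodronate mouse 2. For the interaction they numbered 0, and 2 without the filter. In control mice by liposome they numbered 0, and 0 to 38 without 1 mouse.

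Members at an unadjusted p under 0.05 in control mice by liposome numbered 1, and 2 without the filter, with the mean filter or with the replicate block, and 1 to 3 without 1 mouse. In wheel mice they numbered 5, 3 scaled to the summed CPM, 2 without the 5 mice and 3 to 6 without 1 mouse. Averaged over activity they numbered 4, 3 with upper-quartile scaling, 5 without the 5 mice, and 4 to 7 without 1 mouse, the 7 without control PBS mouse 4. By activity with clodronate they numbered 0, 1 without the filter or the 5 mice, and 0 to 2 without 1 mouse, and for the interaction 0, 1 with upper-quartile scaling, and 0 to 1 without 1 mouse. Pairs of member and score past the threshold by rho numbered 4, and 0 with upper-quartile scaling or without the 5 mice, 2 scaled to the summed CPM and 12 without centring on the groups.

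Upper-quartile scaling took the share of lower genes among those at an unadjusted p under 0.05 from 79.5% to 50.4% averaged over activity, from 87.1% to 57.2% in control and 47.6% to 37.0% in wheel mice by liposome, and from 83.7% to 57.5% by activity with PBS. For the interaction it rose from 16.2% to 29.0%. The cause was not tested. The replicate numbers were not treated as pairs. Same-numbered mice had correlations of deviations over 0.1 in 1 of 6, 3 of 5, 2 of 5 and 4 of 5 pairs in the 4 comparisons of groups. The mean correlation ranged from -0.08 to 0.18 over these comparisons. Mice of different numbers were not compared in this way, so whether the numbers pair the mice was not tested. Depth limits Ctsk and Lgmn most, with at least 100 and 86 reads per mouse.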
